A study of Mus musculus with 2 samples.

Results

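The innate sensors described here are the Toll-like receptor (TLR) genes and the NOD-like receptor (NLR) genes measured on a microarray of the mouse olfactory bulb (OB). They were taken by symbol. A gene was a member when its symbol began with Tlr and a digit, with Nlr or with Naip, or was Nod1 or Nod2, and when a probe set of the array named that gene and no other. This gave 40 of 30098 genes, 12 TLRs and 28 NLR genes, each read by 1 probe set. The OVA pool held RNA from the whole OBs of 4 C57BL/6J offspring that had inhaled aerosolized ovalbumin (OVA), the main protein of egg white and here the allergen, as a 2.5% solution in sessions of 30 min held 3 times each week. The PBS pool held RNA from the OBs of 4 offspring of the same strain that had inhaled aerosolized phosphate-buffered saline (PBS). The dams of both groups had been given alum without OVA before mating and were exposed together with their pups, and the labels place the offspring at postnatal day 28. The labels call the animals female and the methods male, which bears on the X-linked members Tlr7, Tlr8 and Tlr13. On the arrays, the female-specific gene Xist was at a log2 intensity of 6.49 in the OVA pool and 6.39 in the PBS pool. The medians of all probe sets were 7.10 in the OVA pool and 6.89 in the PBS pool. The Y-linked gene Uty was at 11.38 in the OVA pool and 11.36 in the PBS pool. Eif2s3y, also Y-linked, was at 11.58 in OVA and 11.79 in PBS, and Kdm5d at 10.40 in OVA and 10.49 in PBS. These values match the methods rather than the labels.

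TLRs are membrane receptors that recognise conserved microbial molecules. Some sit at the cell surface and bind lipids or flagellin, others sit in endosomes and bind nucleic acids or parasite profilin, and nearly all signal through the adaptor MyD88 to NF-kB. NLRs are cytosolic proteins. NOD1 and NOD2 detect fragments of bacterial cell walls, the NAIPs and several NLRPs assemble inflammasomes that activate caspase-1, and a large group of mouse Nlrp genes is active mainly in oocytes and testis. In the brain, TLR expression is best known from microglia and macrophages.

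Promoters of genes on which the results turn are printed first, to show their regulatory sequence. They are RefSeq sequences of GRCm38.p6 that run from 250 bases before to 50 bases after a transcription start, and 33 of the 40 members had one or more, 42 in all. Capitals mark matches to any of 4 motifs searched on both strands, namely the NF-kB site, the core GAAANNGAA of the interferon-stimulated response element (ISRE), the PU.1 site GAGGAAGT of myeloid genes and the AP-1 site TGANTCA. Tlr11 is shown because it had the largest difference of all members. Its promoter held a PU.1 match at positions 118 to 125 and an ISRE match at positions 129 to 137, counted from 1 at the 5' end.
Tlr11 promoter, chr14:50357664-50357963, plus strand: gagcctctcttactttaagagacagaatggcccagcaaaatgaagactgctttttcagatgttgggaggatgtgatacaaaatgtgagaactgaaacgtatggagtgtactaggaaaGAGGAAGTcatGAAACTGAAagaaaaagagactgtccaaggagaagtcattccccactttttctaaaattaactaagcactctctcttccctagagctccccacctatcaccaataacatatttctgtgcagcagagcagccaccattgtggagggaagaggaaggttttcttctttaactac
The promoters of Tlr3, whose probe set had the highest signal among the members, and of Tlr2, one of the 3 members with the lowest differences, carried NF-kB matches. In Tlr3 it lay at positions 40 to 49, and in Tlr2 overlapping matches lay at 78 to 88 and at 243 to 252.
Tlr3 promoter, chr8:45410331-45410630, minus strand: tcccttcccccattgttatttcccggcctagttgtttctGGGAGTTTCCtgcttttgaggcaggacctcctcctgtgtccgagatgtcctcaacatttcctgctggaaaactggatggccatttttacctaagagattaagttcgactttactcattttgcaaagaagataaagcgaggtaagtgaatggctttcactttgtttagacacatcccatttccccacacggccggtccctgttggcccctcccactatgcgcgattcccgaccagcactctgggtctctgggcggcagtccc
Tlr2 promoter, chr3:83841559-83841858, minus strand: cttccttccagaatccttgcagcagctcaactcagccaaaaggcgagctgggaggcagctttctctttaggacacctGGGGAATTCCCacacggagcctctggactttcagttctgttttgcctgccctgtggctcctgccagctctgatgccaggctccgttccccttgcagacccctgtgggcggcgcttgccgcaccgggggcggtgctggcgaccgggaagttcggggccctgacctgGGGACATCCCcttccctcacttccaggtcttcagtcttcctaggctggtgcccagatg
Nlrp1a and Nlrp1b, neighbours on chromosome 11, are shown because their promoters were the most alike of all pairs of members, with 85% identity and a PU.1 match in each.
Nlrp1a promoter, chr11:71144655-71144954, minus strand: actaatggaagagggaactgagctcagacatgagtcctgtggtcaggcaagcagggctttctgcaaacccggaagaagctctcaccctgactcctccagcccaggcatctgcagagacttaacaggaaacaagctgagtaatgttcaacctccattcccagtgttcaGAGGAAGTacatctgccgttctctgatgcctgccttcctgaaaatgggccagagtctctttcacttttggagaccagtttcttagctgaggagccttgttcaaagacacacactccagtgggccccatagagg
Nlrp1b promoter, chr11:71230684-71230983, minus strand: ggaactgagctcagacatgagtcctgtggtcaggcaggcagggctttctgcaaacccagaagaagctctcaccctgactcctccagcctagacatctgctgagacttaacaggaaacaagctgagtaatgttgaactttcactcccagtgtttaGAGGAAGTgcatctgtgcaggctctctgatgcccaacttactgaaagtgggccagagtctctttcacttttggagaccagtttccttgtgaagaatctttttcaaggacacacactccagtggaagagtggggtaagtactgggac

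Across the members, NF-kB matches stood in 4 of 42 promoters, against 8.46% of all 32851 promoters of this length. ISRE matches stood in 7 (8.56% of all promoters), PU.1 matches in 6 (3.20% of all) and AP-1 matches in 7 (7.81% of all). These counts are not of independent sequences. Overlapping promoters of Nlrp4b were each counted for ISRE and AP-1, and the matches of either motif fell in 6 genes. The PU.1 count includes the similar promoters of Nlrp1a and Nlrp1b. The genes with a PU.1 match were Nlrp1a, Nlrp1b, Nlrp4c, Tlr1, Tlr9 and Tlr11, and those with an NF-kB match were Naip5, Nlrp3, Tlr2 and Tlr3. Median GC content was 47.5% in the members' promoters and 52.7% in all promoters, with a median of 3 and 7 CpG pairs. A match is a run of letters and does not show that a factor binds there.

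Each array was a single pool, so nothing was replicated, values could not be tested, and their precision is limited by having 1 array per group. For each gene the log2 intensity of the PBS pool was subtracted from that of the OVA pool. The z-score is this difference minus the mean over all 65956 probe sets (0.17), divided by their SD (0.36), with thresholds of 2 and -2, which lay at differences of 0.90 and -0.55. The paper gives these thresholds and no formula, so this z-score was assumed and its calls need not be those of the study. For Ccr3, described below, they were not. Being past a threshold places a gene among the larger differences of these 2 arrays and does not show that the gene changed. Signal means the mean log2 intensity of both arrays, and its median over all genes was 7.30. In whole tissue, fewer cells of a type and less RNA per cell cannot be told apart.

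Tlr11 was the only innate sensor past the threshold. Of the 40 genes, 1 reached a z-score of 2 (2.57% of all genes did) and 0 had a z-score of -2 or less (1.66% of all genes did), so these counts lay near the background. The median difference was 0.21 for the 40 members, 0.20 for the 12 TLRs and 0.21 for the 28 NLR genes, against 0.07 for all genes. Most members were dim, however, and dim genes as a whole had higher differences. The median was 0.15 among genes at or below the median signal and -0.05 among brighter genes, and 36 of the 40 members lay in the dimmer part. Set against the local mean difference of the 1000 probe sets nearest in signal, 21 members lay above and 19 below, while 43.6% of all genes at or below the median signal and 35.1% of all genes lay above it.

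**Figure D1:**
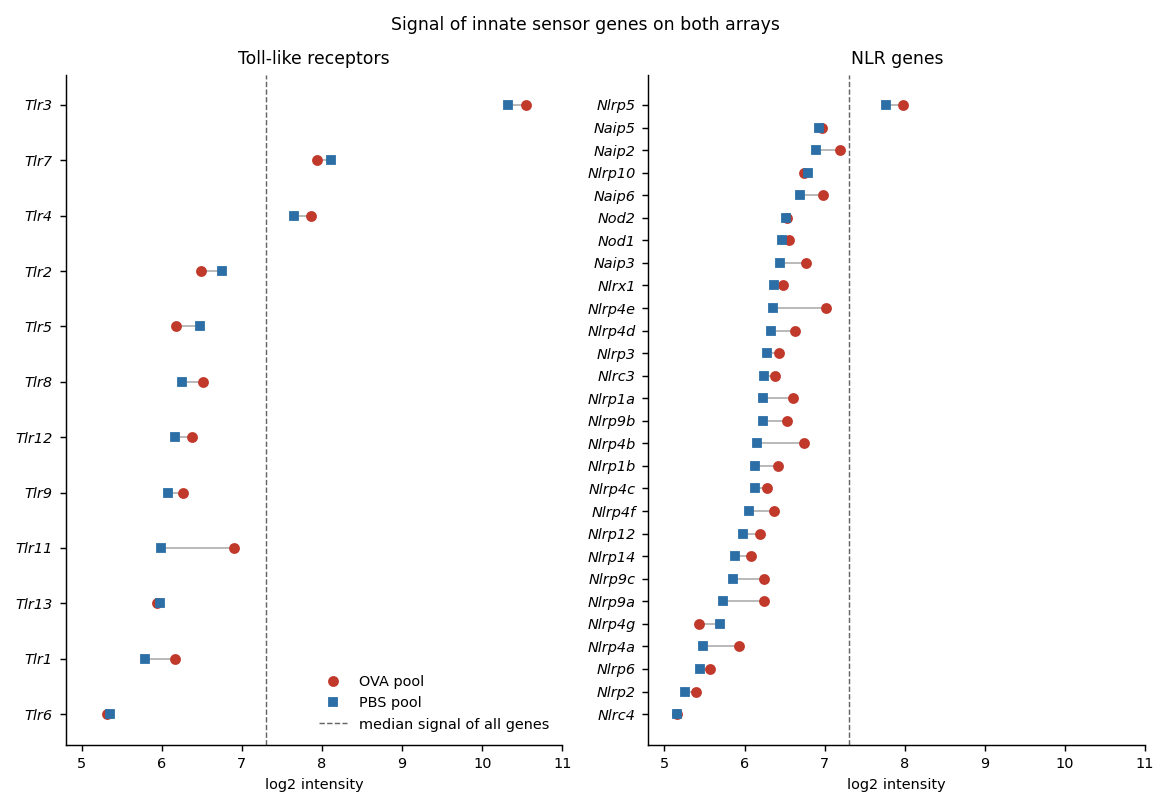
Log2 intensity (x axis) of 12 TLRs and 28 NLR genes (y axis, ordered by level in the PBS pool) in the OVA pool (red circles) and the PBS pool (blue squares), 1 array each, with the median signal of all genes (7.30) as a dashed line. Tlr3, Tlr7, Tlr4 and Nlrp5 lie to the right of that line, and Tlr11 and Nlrp4e have the longest gaps between the pools.

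Most members had low signals, and Tlr3, Tlr4, Tlr7 and Nlrp5 were the 4 above the median signal of all genes. In the OVA pool the log2 intensities ran from 5.16 to 10.54 with a median of 6.45, and in the PBS pool from 5.16 to 10.33 with a median of 6.24. The lower quartile of all probe sets was 6.15 in the OVA pool and 5.96 in the PBS pool, and 7 members lay below it on both arrays. Intensities this low do not show that a transcript was present. They also depend on the probes of each gene, so the signal of a probe set gives its place on the array and not the amount of its transcript relative to other genes.

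The TLRs of the cell surface differed in both directions, and their median difference was -0.03. TLR1 and TLR6 pair with TLR2 to recognise bacterial lipopeptides. Tlr2 had an intensity of 89.8 in the OVA pool and 108.1 in the PBS pool, a difference of -0.27 and a z-score of -1.22. Tlr1 had 71.8 in the OVA pool and 55.3 in the PBS pool, a difference of 0.38. The partners of TLR2 thus differed from each other, since Tlr6 had 39.9 in the OVA pool and 40.7 in the PBS pool, a difference of -0.03. Tlr6 lies next to Tlr1 on chromosome 5, with no protein-coding gene or pseudogene between them. Tlr5, the flagellin receptor, had the lowest difference of all 40 members. Its intensity was 72.6 in the OVA pool and 89.4 in the PBS pool, which gives a difference of -0.30 and a z-score of -1.31. Tlr4, the receptor for lipopolysaccharide, had 233.2 in the OVA pool and 201.7 in the PBS pool. Its difference of 0.21 lay close to the mean of the array (z-score 0.10).

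The endosomal TLRs included the member with the largest difference, and their median difference was 0.22. TLR11 recognises profilin of protozoan parasites in mice and does so together with TLR12. Tlr11 had an intensity of 119.4 in the OVA pool and 63.4 in the PBS pool. That is a difference of 0.91, or 1.88-fold, and a z-score of 2.04, just beyond the threshold. The PBS value (log2 5.99) stood at about the lower quartile of all probe sets, and the OVA value (log2 6.90) did not reach the median of all probe sets (7.10). Against the 1000 probe sets nearest in signal the z-score of Tlr11 was 2.63, and 3.09% of all genes reached 2 on that measure. The call was lost with loess centring of the differences on signal (z-score 1.84) and with 16 added to each intensity before taking logs (z-score 1.83). Tlr12, its partner, had 83.0 in the OVA pool and 71.5 in the PBS pool. At 0.22 the difference of Tlr12 was far smaller and equalled that of probe sets of like signal (signal-dependent z-score -0.01).

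The remaining endosomal TLRs recognise nucleic acids. Tlr3, a receptor for double-stranded RNA, had 1494 in the OVA pool and 1283 in the PBS pool. Its probe set stood at the 84.7th percentile of signal among all genes, and its difference of 0.22 gave a z-score of 0.12. The single-stranded RNA receptors Tlr7 and Tlr8 are neighbours on the X chromosome with no protein-coding gene or pseudogene between them. They differed in opposite directions. Tlr7 had 245.1 in the OVA pool and 276.4 in the PBS pool, a difference of -0.17. Tlr8 had 91.5 in the OVA pool and 76.1 in the PBS pool, a difference of 0.27. Neither of these neighbours was past the threshold. Tlr9, the receptor for unmethylated CpG DNA, had 76.9 in the OVA pool and 67.3 in the PBS pool, a difference of 0.19. Tlr13, which recognises bacterial ribosomal RNA in mice, had 61.2 in the OVA pool and 62.9 in the PBS pool, a difference of -0.04. All endosomal TLRs other than Tlr11 lay within a z-score of 1 of the array mean.

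**Figure D2:**
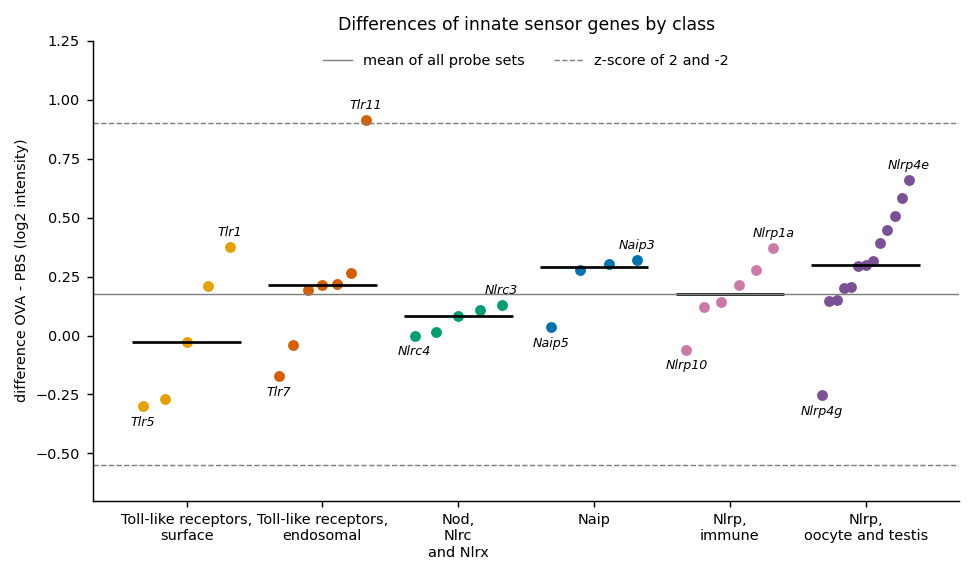
Difference OVA minus PBS in log2 intensity (y axis) of each innate sensor gene by class (x axis), with class medians as black bars, the mean of all probe sets (0.17) as a grey line and z-scores of 2 and -2 as dashed lines. Tlr11 is the only point beyond a dashed line, and the Nlrp genes of oocytes and testis reach from -0.25 for Nlrp4g to 0.66 for Nlrp4e.

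Nod1, Nod2, the Nlrc genes and Nlrx1 had differences from 0 to 0.13, with a median of 0.08. All 5 lay below the mean of the array, as did 64.4% of all genes. All 5 were also at or below the median signal, where 45.3% of all genes lay above that mean. NOD1 and NOD2 bind peptidoglycan fragments and signal through the kinase RIPK2. Nod1 had an intensity of 94.0 in the OVA pool and 88.7 in the PBS pool (difference 0.08). Nod2 had 92.4 in the OVA pool and 91.5 in the PBS pool (difference 0.01). Both receptors were thus nearly level between the pools. Nlrc3, an inhibitor of innate signalling, had 83.0 in the OVA pool and 75.9 in the PBS pool (difference 0.13). Nlrx1, a mitochondrial NLR, had 89.1 in the OVA pool and 82.6 in the PBS pool (difference 0.11). NLRC4 is the partner with which the NAIPs form an inflammasome. Nlrc4 had the same intensity, 35.7, in the OVA pool and in the PBS pool, as 337 genes had identical values on the arrays.

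The NAIPs bind flagellin or parts of bacterial secretion needles, and their genes form a cluster on chromosome 13. Naip2, which binds a rod protein of the needle, had 145.9 in the OVA pool and 118.4 in the PBS pool (difference 0.30). Naip6, a flagellin receptor, had 126.0 in the OVA pool and 103.8 in the PBS pool (difference 0.28). Naip3, annotated as a pseudogene next to Naip6, had 108.5 in the OVA pool and 86.9 in the PBS pool (difference 0.32). These 3 genes had nearly equal differences, while Naip5, a flagellin receptor that lies between Naip2 and Naip6, had 124.8 in the OVA pool and 121.8 in the PBS pool (difference 0.03). The z-scores of the 4 genes ran from -0.39 to 0.40. Members of this cluster are close copies, as are the Nlrp1, Nlrp4 and Nlrp9 genes, and how far a probe set also reads a copy was not tested.

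Of the 6 immune Nlrp genes, 5 were higher in the OVA pool and 1 was lower, and 0 were past the threshold. All 6 lay at or below the median signal, where 76.7% of all genes were higher in the OVA pool. Nlrp3, the sensor of an inflammasome that responds to cell damage, had 86.1 in the OVA pool and 78.0 in the PBS pool (difference 0.14, z-score -0.09). NLRP1 proteins detect microbial proteases. Nlrp1a had 97.4 in the OVA pool and 75.4 in the PBS pool (difference 0.37). Nlrp1b, next to it, had 85.1 in the OVA pool and 70.3 in the PBS pool (difference 0.28). These neighbours had the largest differences of the 6 genes. Nlrp12, an inhibitor of NF-kB signalling in myeloid cells, had 73.2 in the OVA pool and 63.1 in the PBS pool (difference 0.21). Nlrp6, best known from the intestinal epithelium, had 47.4 in the OVA pool and 43.6 in the PBS pool (difference 0.12). Nlrp10, known from the skin, was the one that was lower, at 106.6 in the OVA pool and 111.2 in the PBS pool (difference -0.06).

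The 13 Nlrp genes of oocytes and testis had the highest median difference of the 6 classes of members, 0.30, with 0 past the threshold. The 4 Naip genes were close behind, with a median of 0.29. In the OVA pool 12 genes were higher and 1 lower (76.7% of all genes at or below the median signal were higher), and 10 lay above and 3 below the mean of the array (45.3% of those dimmer genes lay above). Nlrp4e had 129.6 in the OVA pool and 82.0 in the PBS pool, a difference of 0.66 and a z-score of 1.34. Nlrp4b had 106.7 in the OVA pool and 71.3 in the PBS pool (difference 0.58, z-score 1.12). The largest differences of all members after that of Tlr11 lay in this class. Nlrp9a had 75.7 in the OVA pool and 53.3 in the PBS pool (difference 0.51). Nlrp4a had 61.1 in the OVA pool and 44.8 in the PBS pool (difference 0.45). At the other end stood Nlrp4g, at 43.3 in the OVA pool and 51.5 in the PBS pool (difference -0.25). Nlrp5, also called Mater, is a maternal-effect gene of the early embryo and had 251.7 in the OVA pool and 218.2 in the PBS pool (difference 0.21). Nlrp2, another maternal-effect gene, had 42.1 in the OVA pool and 38.1 in the PBS pool (difference 0.14).

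Related genes of this class lie close together on chromosome 7. Nlrp9c, Nlrp4a and Nlrp9a follow each other with no other protein-coding gene or pseudogene between them, and their differences were 0.39, 0.45 and 0.51. Promoter identity was 82.3% between Nlrp9c and Nlrp9a and 77% between Nlrp4b and Nlrp4a, against a median of 58.3% over 528 pairs of members. Where a member had several promoters, the most similar combination of each pair was taken. Just 6 pairs reached 70%, all of them within the Nlrp1, Naip, Nlrp4 or Nlrp9 genes. Among them, Nlrp4c (difference 0.15) and Nlrp4b (difference 0.58) shared 71% of bases, and Naip2 (difference 0.30) and Naip5 (difference 0.03) shared 70.7%. Each difference comes from 1 probe set on 1 pair of arrays, and whether promoter sequence bears on it was not tested. The 7 Nlrp4 genes showed a median of 0.31 and the 3 Nlrp9 genes one of 0.39, and 0 of these 10 genes reached the median signal of all genes. The 27 members outside the oocyte and testis class had a median difference of 0.14, beside 0.15 for all genes at or below the median signal.

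**Figure D3:**
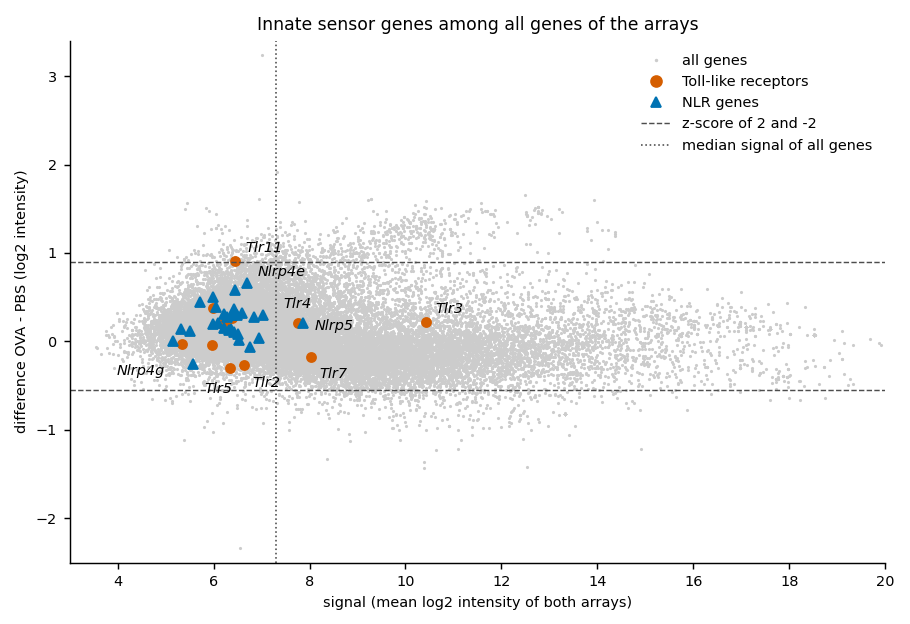
Difference OVA minus PBS in log2 intensity (y axis) against signal (x axis) for 30098 genes (grey points), 12 TLRs (orange circles) and 28 NLR genes (blue triangles), with z-scores of 2 and -2 as dashed lines and the median signal of all genes (7.30) as a dotted line. The members lie within the cloud of all genes, 36 of them at or left of the dotted line.

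Other reproductive genes were set beside these Nlrp genes. The median difference of 18 oocyte and maternal-effect genes was 0.16, with 0 past the threshold. Ooep, which encodes a partner of NLRP5 in the egg, had 55.3 in the OVA pool and 45.6 in the PBS pool (difference 0.28). Of the 18, 13 lay below the lower quartile of all probe sets on both arrays. The median difference of 10 germ cell genes was 0.32, again with 0 past the threshold, and Sycp3, a protein of meiotic chromosomes, had the largest, 0.62 (344.4 in the OVA pool and 224.7 in the PBS pool). The summed intensity of the germ cell genes was 1456 in the OVA pool and 1169 in the PBS pool. The part of such genes in the values of the Nlrp class was not tested.

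Genes that act with or downstream of the sensors differed in both directions, and most lay below the mean of the array. Of 80 distinct genes on 7 lists (TLR accessory proteins, adaptors, kinases and ubiquitin ligases, inhibitors and transcription factors, the NOD1 and NOD2 pathway, and inflammasome components), 0 passed the higher threshold and 0 the lower one (2.57% and 1.66% of all genes did). Their differences ran from -0.52 to 0.56 with a median of -0.01. Below the mean of the array lay 67 of the 80, a larger share than the 64.4% of all genes. Against the local mean of probe sets nearest in signal, 12 lay above and 68 below, while 35.1% of all genes lay above. The reason for this shift was not tested. Accessory proteins, which deliver ligands or fold and carry TLRs, had a median of 0.07 over 12 genes. Ly96, the co-receptor of TLR4, had 150.5 in the OVA pool and 182.2 in the PBS pool (difference -0.28), farther from the array mean than the other accessory genes. Unc93b1, which carries the nucleic acid sensing TLRs to endosomes, had 155.7 in the OVA pool and 159.4 in the PBS pool (difference -0.03). Adaptors had a median of -0.07 over 7 genes. Myd88 had 107.6 in the OVA pool and 115.0 in the PBS pool (difference -0.10), and Scimp, an adaptor of macrophages, had 65.4 in the OVA pool and 44.5 in the PBS pool (difference 0.56).

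Kinases and ubiquitin ligases of the TLR pathway had the lowest median of the 7 lists, -0.17. All 15 genes measured, of 19 listed, lay below the mean of the array. These genes were mostly bright, with 13 of 15 above the median signal, and among all genes in that range 74.1% lay below the mean of the array. Tab1, a partner of the kinase TAK1, was nearest to the threshold, at 269.1 in the OVA pool and 384.9 in the PBS pool (difference -0.52, z-score -1.91). Ube2n, the ubiquitin-conjugating enzyme used by TRAF6, had 15332 in the OVA pool and 19481 in the PBS pool (difference -0.35). The inhibitors had a median of 0.00 over 10 genes, and the transcription factors one of -0.04 over 8 genes. Nfkbia, the NF-kB inhibitor that is itself an NF-kB target, had 331.8 in the OVA pool and 393.0 in the PBS pool (difference -0.24). Rela, an NF-kB subunit, had 863.1 in the OVA pool and 901.1 in the PBS pool (difference -0.06).

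The lists that follow the NLRs had medians of -0.04 over 12 genes for the NOD1 and NOD2 pathway and 0.03 over 18 genes for inflammasome components. Slc46a3, a transporter linked to the uptake of muropeptides, had 211.9 in the OVA pool and 276.8 in the PBS pool (difference -0.39). Casp1, the inflammasome protease, had 1636 in the OVA pool and 1555 in the PBS pool (difference 0.07). Casp12, a related caspase, had the largest difference of that list, 0.54, with 173.9 in the OVA pool and 119.3 in the PBS pool. Products that NF-kB and inflammasomes induce or release were next examined. Over 18 cytokines, chemokines and adhesion molecules induced by NF-kB the median was 0.09, and 0 were past the threshold. Il6 had the largest difference, 0.58 (66.3 in the OVA pool and 44.2 in the PBS pool), and Vcam1 the lowest, -0.48 (584.9 in the OVA pool and 814.2 in the PBS pool). Tnf had 54.3 in the OVA pool and 52.6 in the PBS pool (difference 0.04), and Il1b had 84.2 in the OVA pool and 76.7 in the PBS pool (difference 0.13).

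**Figure D4:**
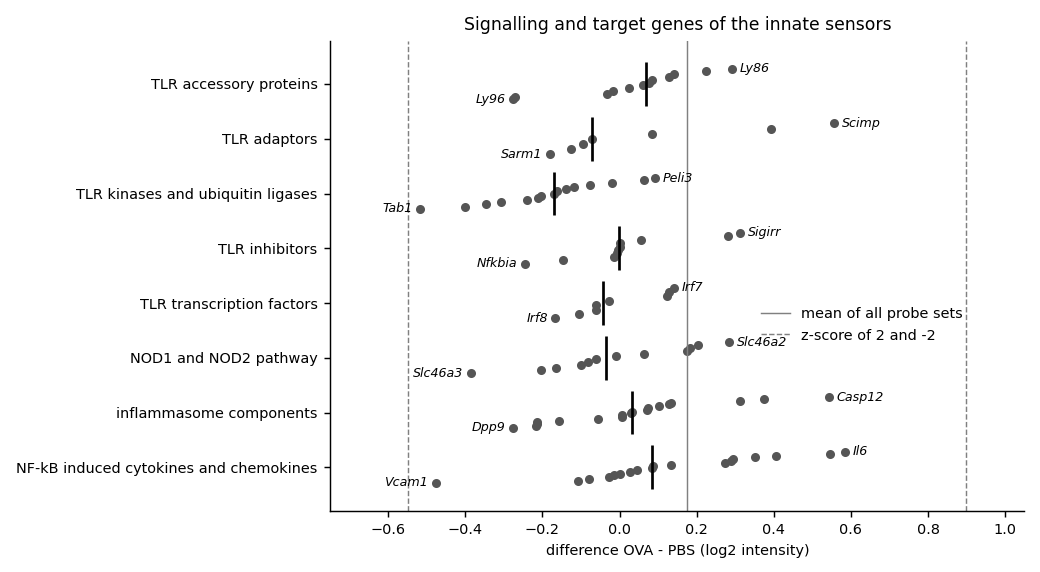
Difference OVA minus PBS in log2 intensity (x axis) of the genes of 8 lists (rows), each point a gene, black bars list medians, the grey line the mean of all probe sets (0.17) and dashed lines z-scores of 2 and -2. The points all lie between the dashed lines, and the kinases and ubiquitin ligases lie left of the grey line.

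The cells that could carry these sensors were examined through marker genes. The labelled tissue was checked on markers of OB neurons, which were bright in both pools, with Calb2, of periglomerular interneurons, at 39647 in the OVA pool and 50855 in the PBS pool. Of 13 such markers, 5 were past the threshold, all lower in the OVA pool (Slc17a6, Cdhr1, Gad1, Th and Slc17a7), beside 1.66% of all genes, and the median of the 13 was -0.44. Of these markers 11 lay above the median signal, where differences were lower in general, and on the signal-dependent z-score 1 of the 5, Slc17a6 (-2.05), remained past the threshold. Microglia and macrophages, the main TLR-bearing cells of the brain, had a median of -0.02 over 11 markers, with 5 higher and 6 lower in the OVA pool. Their summed intensity was 4822 in the OVA pool and 5380 in the PBS pool, and without Sall1, a microglial transcription factor that carried most of this gap, 2685 in the OVA pool and 2716 in the PBS pool. Csf1r, the receptor for the growth factor that maintains microglia, was past the threshold and lower, at 274.1 in the OVA pool and 402.2 in the PBS pool (difference -0.55), but not on the signal-dependent z-score (-1.62). Aif1, which encodes the microglial protein Iba1, had 196.6 in the OVA pool and 165.5 in the PBS pool (difference 0.25). Cx3cr1, the fractalkine receptor of microglia, had 384.2 in the OVA pool and 389.1 in the PBS pool (difference -0.02).

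Markers of blood-borne cells that express TLRs mostly had signals at or below the median of all genes. Above it lay 3 neutrophil markers and 1 gene of the dendritic cell list, Siglech. Which cells gave the signal of Siglech was not tested, so it does not show dendritic cells in the tissue. Medians were 0.08 over 12 neutrophil markers, 0.12 over 7 eosinophil markers, 0.12 over 8 dendritic cell markers and 0.12 over 8 markers of T and B cells, and 0 of these genes were past the threshold. On the signal-dependent z-score 2 of them were. Ccr3, a chemokine receptor of eosinophils, had 59.1 in the OVA pool and 37.6 in the PBS pool (difference 0.65, signal-dependent z-score 2.19, z-score 1.31), and Retnlg, a neutrophil gene, had 87.6 in the OVA pool and 116.2 in the PBS pool (difference -0.41, signal-dependent z-score -2.03). These scores are values of single probe sets on 1 pair of arrays. The paper names Ccr3 as upregulated, a call that the main z-score here did not make. Summed intensities of the neutrophil markers were 1398 in the OVA pool and 1268 in the PBS pool, and those of the eosinophil markers 440.5 in the OVA pool and 376.1 in the PBS pool. For dendritic cells the sums were 1166 in the OVA pool and 1048 in the PBS pool. Without Siglech, the brightest of these markers, they were 691.1 in the OVA pool and 611.5 in the PBS pool. For T and B cells the sums were 549.9 in the OVA pool and 481.6 in the PBS pool. Of all genes at or below the median signal, 76.7% were higher in the OVA pool. The median difference of those dimmer genes, 0.15, lay above the medians of the neutrophil, eosinophil, dendritic cell and T and B cell markers. Among 10 markers of the olfactory sensory neurons and epithelium, from which axons enter the OB, the median was 0.06, with 6 higher and 4 lower in the OVA pool. Their summed intensity was 4502 in the OVA pool and 5433 in the PBS pool, and without the 2 brightest, Stoml3 and Gnal, 958.9 in the OVA pool and 934.4 in the PBS pool. The part of cell numbers in the values of the TLRs and NLR genes was not tested.

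**Figure D5:**
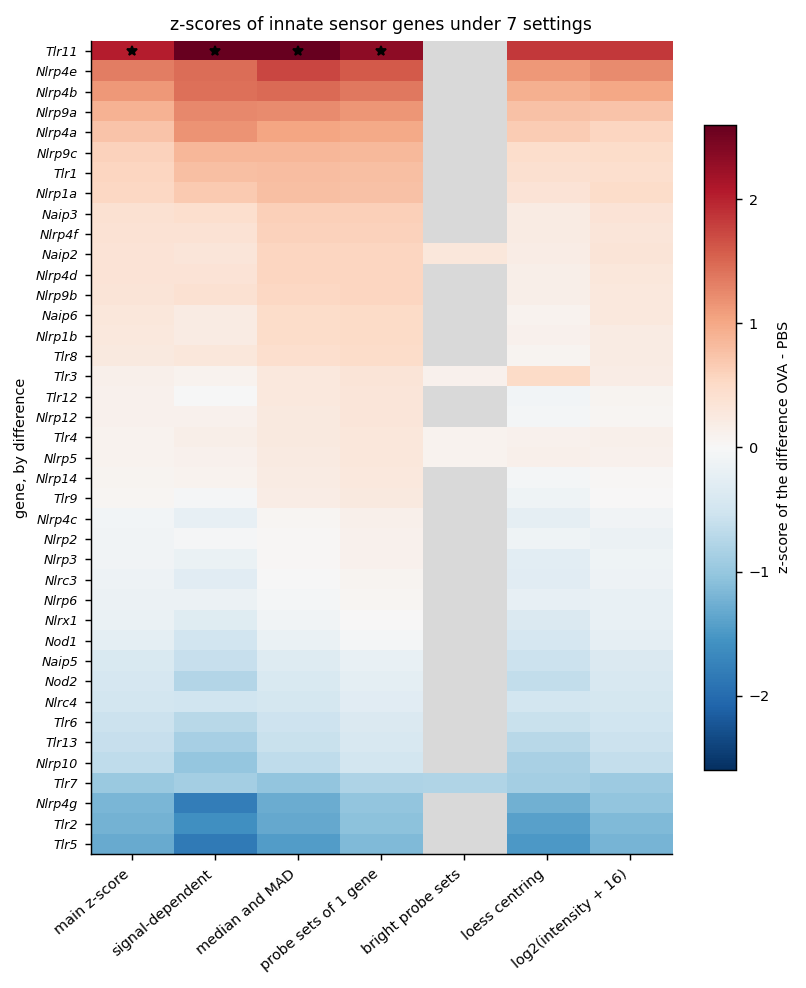
z-score of the difference OVA minus PBS (colour, red above and blue below 0) of each member (rows, by difference) under the main measure and 6 alternatives, 7 columns in all, with stars at values of 2 or more and grey where a gene was not above the median signal of all probe sets. Tlr11 alone carries stars, in 4 of the 7 columns, and the order of the genes by colour is much the same from column to column.

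The remaining 39 members were below the threshold under every alternative, with z-scores from -1.84 to 1.74. At the low end stood Tlr5, and at the high end Nlrp4e. When the measure used probe sets above the median signal, 5 members remained, Tlr3, Tlr4, Tlr7, Naip2 and Nlrp5, and 0 of them were past the threshold.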

How the data were processed

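RNA from the OBs of 1 pool per group (OVA and PBS) was hybridized to Clariom D mouse arrays. The methods give 100 ng of RNA isolated with an RNeasy kit, the labels TRIzol and an SV kit. The authors processed the scans in Expression Console (1.4.1 in the submitters' processing notes, which name RMA) with its SST-RMA algorithm, summarized per gene. Whether dim probe sets were filtered, and the annotation's genome build, is not given in the sources used here. Deposited were linear intensities for 65956 probe sets, and log2 was taken here. The array gives no depth.

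Gene symbols came from the platform annotation, and RefSeq genes (GRCm38.p6) replaced 330 outdated ones. Of all probe sets, 30638 named 1 gene, 2176 several and 33142 none. No p-value was computed. Members and 18 gene lists were chosen with earlier results of these data known. Named were the genes past the threshold, all TLRs, Nod, Naip, Nlrc, Nlrx1 and Nlrp1 to Nlrp3, Nlrp6, Nlrp10 and Nlrp12, and the members with the largest and smallest differences and highest signal. From lists, members past the threshold (otherwise the one farthest from the mean) and the brightest 3 were eligible. Xist, Uty, Eif2s3y, Kdm5d, Nlrp9c, Nlrp4c, Unc93b1, Casp1, Casp12, Il6, Tnf, Il1b, Aif1 and Ooep were chosen with their values in view. Alternatives were 9 planned settings and 1 added later. Computation used Python 3.11.15, pandas 2.3.3, numpy 2.4.6, statsmodels 0.14.6 (loess, span 0.2), Biopython 1.88 and matplotlib 3.10.9, and was tested on simulated data.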

Additional observations from a re-analysis of the deposited data

How the results depend on the processing

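The count of members past the higher threshold fell to 0 with probe sets above the median signal (5 members left, Tlr11 not among them), with loess centring (z-score of Tlr11 1.84) and with log2(intensity + 16) (1.83). The signal-dependent z-score, a mean and SD from single-gene probe sets, the median and median absolute deviation, an added 1.5-fold difference, the brightest probe set of each gene, symbols not updated and merged synonyms (added after the data had been seen) left it at 1. The z-scores of Tlr11 under these settings ran from 2.04 to 2.63. Some of these settings could not change the call. Each member had 1 probe set, so its brightest one was the same. A z-score of 2 already lies farther from the mean than a 1.5-fold difference. With symbols not updated and with merged synonyms, the z-score of Tlr11 was 2.04, as in the main measure. The count past the lower threshold was 0 throughout. Loess centring moved the median difference to 0.026 for all members, 0.013 for the TLRs and 0.054 for the NLR genes, where that of all genes was -0.06. With log2(intensity + 16) these medians were 0.18, 0.17 and 0.18, and with probe sets above the median signal those of 3 TLRs and 2 NLR genes were 0.21 and 0.25. No paired analysis was possible because each group has 1 array, and leaving out a replicate was not possible for the same reason. Low signal limits most members, as 36 of 40 lay at or below the median signal of all genes.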

Other observations

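Beyond TLRs and NLRs, the sensors of nucleic acids in the cytosol had a median difference of 0.13 over 10 genes, with 0 past the threshold. Ifi204, a DNA sensor induced by interferon, had 279.5 in the OVA pool and 206.1 in the PBS pool (difference 0.44). Ifih1, which encodes the double-stranded RNA sensor MDA5, had 282.7 in the OVA pool and 235.0 in the PBS pool (difference 0.27), and Aim2, a DNA sensor that forms an inflammasome, had 352.6 in the OVA pool and 345.4 in the PBS pool (difference 0.03).

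There were 3 further probe sets that named an NLR gene together with other names and were left out of the 40 members. The one naming Nlrc5, a regulator of MHC class I genes, with a microRNA had 81.3 in the OVA pool and 71.3 in the PBS pool (difference 0.19). The one naming Nlrp1c under both of its symbols had 64.8 in the OVA pool and 52.2 in the PBS pool (difference 0.31), and the one naming Nlrp5-ps with Vmn1r90 and Gm18756 had 447.6 in the OVA pool and 408.1 in the PBS pool (difference 0.13).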
